A study of Homo sapiens with 15 samples.

Results

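The response shared by the compound labeled NP and the biguanides metformin (MET) and phenformin (PHEN) was read from all 15 arrays of the series. The study measured inhibition of mitochondrial complex I for petasin, metformin and phenformin. Each compound was set against its own vehicle on the same slides, as NP minus DMSO, MET minus W and PHEN minus W, and the mean of these 3 effects was tested for every feature. A feature is a gene, or a transcript without a gene symbol, read by its brightest probe. It was called shared when the mean effect had an adjusted p of at most 0.05 in limma and all 3 effects had the same sign. Of 26824 features, 83 were called (0.309%). They comprised 70 that were higher with the compounds (0.261%) and 13 that were lower (0.0485%). A gene symbol was known for 57 of them, 49 higher and 8 lower.

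The cells were A2058, an established human melanoma line, and no allele differed between groups. They received NP at 3 µM, the biguanides metformin (MET) at 5 mM or phenformin (PHEN) at 50 µM, the vehicle DMSO or the vehicle water (W) for 8 hours, with 3 single-dye arrays per group. The compound is NP in the sample labels and neopetasin in the series title, while the methods of the study describe petasin for these cells and this dose, so its identity is not settled here. The labels number the replicates 1 to 3, and the methods of the study call them biological replicates. MET and PHEN share the 3 W arrays, and their effects are therefore not independent of each other. DMSO and NP arrays lay on other slides than W, MET and PHEN arrays, so that vehicle and slide set cannot be told apart. Since the doses differ, the effects of the compounds are given side by side, with no order of potency. Between 25799 and 45007 of 58201 probes were well above background on an array, and no spot was saturated. The melanocyte genes MITF, PMEL, MLANA, TYRP1, DCT, SOX10 and S100B were above background on all 15 arrays and TYR on 13, whereas the epithelial genes EPCAM and CDH1 were on none, and the epithelial keratin genes KRT8 and KRT18 were on all 15. Of the leukocyte markers, PTPRC and CD14 were above background on all 15 arrays, as were all 3 endothelial markers. No marker passed the test of the mean effect (26 tested, adjusted p of 0.453 to 0.997 from limma).

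Complex I passes electrons from NADH into the respiratory chain. Cells with a blocked chain regenerate less NAD+ and make less aspartate, and they are known to activate the integrated stress response, in which phosphorylation of the translation factor eIF2α favors translation of the transcription factor ATF4. ATF4 pairs with C/EBP and other bZIP proteins, binds the C/EBP-ATF response element and raises genes of amino acid synthesis, amino acid transport and tRNA charging. A separate glucose sensor, the transcription factor MondoA with its partner MLX, binds carbohydrate response elements in TXNIP and ARRDC4, whose proteins restrain glucose uptake.

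Promoter sequences of called genes are shown because several of the largest shared rises and falls were on known targets of these 2 systems. The windows run from 250 bases before to 50 bases after each RefSeq transcript start (GRCh38.p14), and the 250 bases before the start are printed, 5′ to 3′ on the strand of the gene. Capitals mark the C/EBP-ATF response element TGATGNAA on either strand, searched in every window. The 4 genes with a match among the 20 largest rises are CHAC1 (chr15:40953221-40953470, plus strand), JDP2 (chr14:75427772-75428021, plus strand), ASNS (chr7:97872409-97872658, minus strand) and ATF3 (chr1:212565157-212565406, plus strand).
CHAC1: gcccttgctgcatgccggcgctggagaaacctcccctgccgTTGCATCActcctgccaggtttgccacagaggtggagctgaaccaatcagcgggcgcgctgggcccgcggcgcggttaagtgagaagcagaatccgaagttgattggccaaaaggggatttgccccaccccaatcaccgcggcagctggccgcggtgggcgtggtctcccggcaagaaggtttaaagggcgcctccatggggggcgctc
JDP2: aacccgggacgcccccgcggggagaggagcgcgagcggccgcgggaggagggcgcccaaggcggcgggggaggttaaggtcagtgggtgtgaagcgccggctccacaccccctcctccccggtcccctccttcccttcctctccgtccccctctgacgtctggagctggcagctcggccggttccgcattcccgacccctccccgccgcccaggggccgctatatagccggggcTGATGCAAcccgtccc
ASNS: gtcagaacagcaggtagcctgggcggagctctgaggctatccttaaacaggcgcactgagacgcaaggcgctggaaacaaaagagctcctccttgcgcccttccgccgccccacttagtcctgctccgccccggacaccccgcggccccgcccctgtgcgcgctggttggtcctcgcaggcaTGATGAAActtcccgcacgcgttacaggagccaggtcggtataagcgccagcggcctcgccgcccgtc
ATF3: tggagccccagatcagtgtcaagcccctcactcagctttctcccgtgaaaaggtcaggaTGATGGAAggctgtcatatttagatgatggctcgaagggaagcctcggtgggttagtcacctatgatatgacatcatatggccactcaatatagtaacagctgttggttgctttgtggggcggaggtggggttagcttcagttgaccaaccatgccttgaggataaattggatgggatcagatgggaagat
In TXNIP (chr1:145996580-145996829, minus strand), capitals mark the carbohydrate response element, read as CACGNG, 5 letters of any kind and CNCGNG on either strand, a search that was added after the data had been seen.
TXNIP: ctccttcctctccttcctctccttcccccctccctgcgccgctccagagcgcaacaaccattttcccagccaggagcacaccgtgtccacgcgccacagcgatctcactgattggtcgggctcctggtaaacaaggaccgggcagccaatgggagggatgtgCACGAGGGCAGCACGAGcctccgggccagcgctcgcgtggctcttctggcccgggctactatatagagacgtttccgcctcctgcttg
The match in CHAC1 is on the opposite strand and starts 209 bases before the transcript start, and those in JDP2, ASNS and ATF3 are on the strand of the gene and start 16, 68 and 191 bases before it. The match in ATF3 lies in 1 of its 2 windows, those in ASNS and TXNIP in 1 of 2 and that in JDP2 in 1 of 3. Of the windows of genes called higher, 10 of 68 held TGATGNAA (14.7%, in 10 of 38 genes with a window), against 3.62% of all 35116 windows and 2.29% of the 18171 windows of genes tested. Among genes called lower it was in 1 of 9 windows, that of JCAD. The carbohydrate response element was in windows of TXNIP and JDP2, in JDP2 in another window than TGATGNAA, and in 0.501% of all windows and 0.693% of those of genes tested. A match describes the letters of the window and not a site in use.

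**Figure D1:**
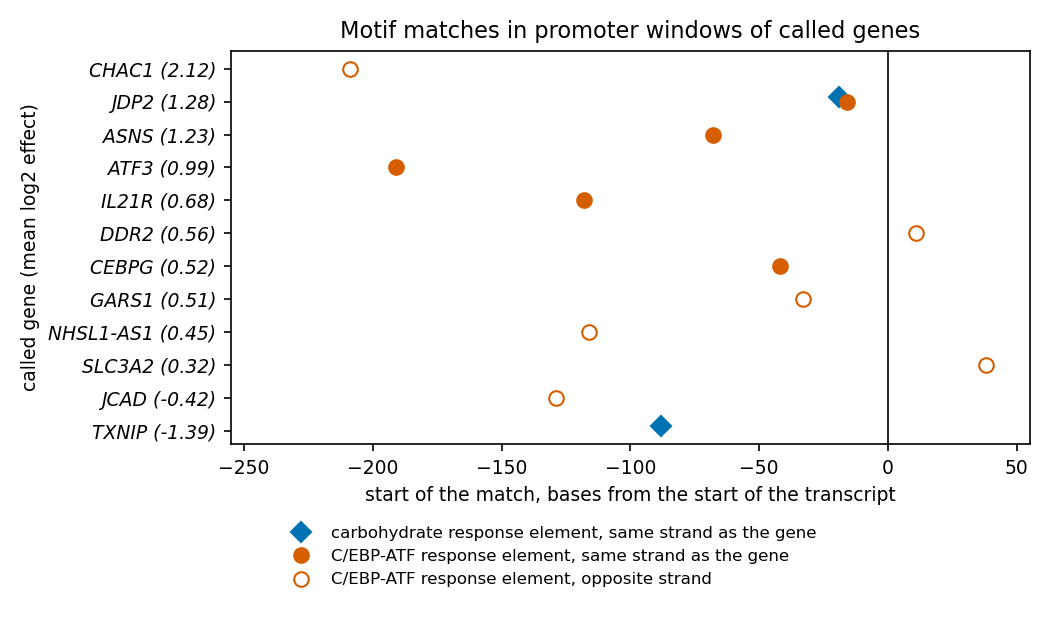
Start of each motif match (x axis, bases from the transcript start) in the promoter windows of called genes (y axis, with the mean log2 effect in parentheses). Circles are the C/EBP-ATF response element, filled on the strand of the gene and open on the opposite strand, and diamonds are the carbohydrate response element. The 10 genes called higher have matches between 209 bases before and 38 bases after the start, and the 2 kinds of match in JDP2 are in different windows.

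The largest shared rise in the mean effect was that of CHAC1. CHAC1 (NM_024111), a glutathione-degrading enzyme and known ATF4 target, had a level (log2 intensity minus the array's 75th percentile) of 2.36, 1.09 and 2.83 on the DMSO arrays and 3.70, 3.69 and 4.38 on the NP arrays. Its level was 1.03, 0.85 and 0.94 on the W arrays, 2.87, 3.07 and 3.27 after MET and 3.20, 3.19 and 3.60 after PHEN. Every treated array lay above every array of its own vehicle. The log2 effects were 1.83 for NP, 2.13 for MET and 2.39 for PHEN, with a mean of 2.12 (standard error 0.15, adjusted p = 0.00324 from limma), a 4.34-fold rise. A further CHAC1 probe gave a mean of 2.05. In bulk RNA, a change in the number of cells that express a gene and in the RNA per cell cannot be told apart. Without W replicate 2 the mean was called no longer (adjusted p = 0.0524).
NUPR1 (NM_001042483), a small stress-induced chromatin protein, had a level of -2.02, -1.67 and -1.05 after DMSO and -0.44, 0.05 and 0.73 after NP. It was at -2.72, -2.62 and -2.72 on the W arrays, at -1.29, -1.41 and -0.96 after MET and at -1.33, -1.26 and -0.77 after PHEN. The groups did not overlap in any of the 3 comparisons. The effects of 1.69, 1.47 and 1.57 gave a mean of 1.58 (standard error 0.08, adjusted p = 0.00222 from limma), and the 9 pairs of equal replicate number lay between 1.21 and 1.96. NUPR1 and ARRDC4 were the only features that passed an adjusted p of at most 0.05 in each of the 3 effects on its own.

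**Figure D2:**
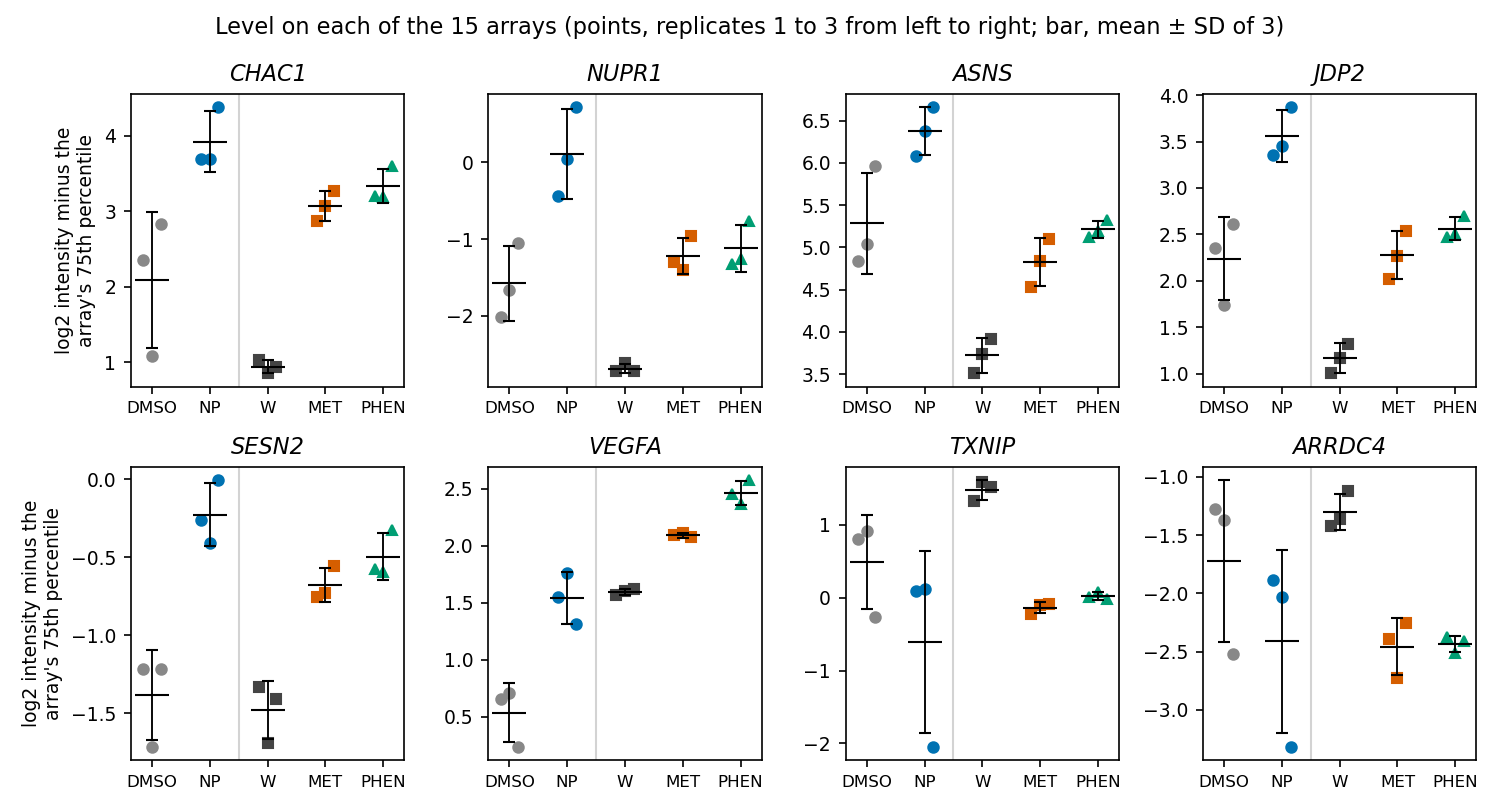
Level of 8 called genes (y axis, log2 intensity minus the array's 75th percentile) on each of the 15 arrays, by group on the x axis. Points are replicates 1 to 3 from left to right, the bar is the mean ± SD (n = 3), and a grey line separates the slide sets. Treated points lie above their own vehicle for CHAC1, NUPR1, ASNS, JDP2, SESN2 and VEGFA, and below W for TXNIP and ARRDC4, whose DMSO and NP arrays overlap.

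Of the 12 members of the list of ATF4 and partner factors, 7 rose and 0 fell, and 10 were higher in all 3 effects. The median of their mean effects was 0.54, beside -0.02 over all features, of which 11.9% were higher in all 3 effects. Of all features, 0.261% were called higher and 0.0485% lower, and the counts of every list below stand beside these shares. No list was independent of earlier results of these data, so the counts are a description. ATF4 (NM_001675) itself was at 7.83, 7.25 and 8.20 after DMSO and 8.21, 8.18 and 8.68 after NP, which overlap by 1 array. It was at 7.45, 7.47 and 7.59 on the W arrays, at 7.95, 8.03 and 8.08 after MET and at 8.06, 8.03 and 8.10 after PHEN, with both treated groups above W. The effects were 0.60, 0.52 and 0.56, with a mean of 0.56 (standard error 0.07, adjusted p = 0.0218 from limma), and the 9 pairs lay between 0.38 and 0.94. JDP2 (NM_130469), a bZIP repressor of the AP-1 family, rose by a mean of 1.28 (standard error 0.08, adjusted p = 0.00296 from limma), and its effects were 1.32, 1.11 and 1.39. ATF3 (NM_001040619), a bZIP factor downstream of ATF4, rose by 0.99 (adjusted p = 0.00873), DDIT3 (NM_004083), which encodes CHOP, by 0.78 (adjusted p = 0.0182), and TRIB3 (NM_021158), a pseudokinase that restrains ATF4, by 0.75 (adjusted p = 0.00739). The probes of ATF3 disagreed, since 3 of 4 gave means of 0.46 to 0.99 and the fourth -0.04, and with the mean of its probes ATF3 was at 0.57 and not called. CEBPG, a bZIP partner of ATF4, rose by 0.52 (adjusted p = 0.0468). CEBPB had a mean effect of 0.27 (adjusted p = 0.0685) and ATF5 of -0.20 (adjusted p = 0.293). Of the 10 genes for eIF2α kinases, phosphatase subunits and their activators, 0 were called (median -0.01). DELE1, which relays mitochondrial stress to an eIF2α kinase, was at 0.13 (adjusted p = 0.378) and PPP1R15A, an eIF2α phosphatase subunit, at 0.13 (adjusted p = 0.646).

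Several genes for enzymes that make asparagine, serine, cysteine and alanine were called higher in the mean of the 3 effects. On its own, the MET effect passed an adjusted p of at most 0.05 in limma for none of them. ASNS (NM_001673), asparagine synthetase, was at 4.84, 5.04 and 5.97 after DMSO and 6.09, 6.38 and 6.66 after NP. It was at 3.51, 3.74 and 3.92 on the W arrays, at 4.54, 4.84 and 5.10 after MET and at 5.12, 5.19 and 5.33 after PHEN. Treated and vehicle arrays did not overlap, and the W arrays lay below all 3 DMSO arrays. The effects of 1.09, 1.10 and 1.49 had a mean of 1.23 (standard error 0.08, adjusted p = 0.003 from limma), a 2.34-fold rise. The transcribed pseudogene FLJ43315 rose by 1.17 (adjusted p = 0.0163), and since it resembles ASNS its probe could read ASNS transcripts. With normexp background correction FLJ43315 was at 0.70, still called. In the list of asparagine, arginine, proline and alanine enzymes, 4 of 14 rose and 0 fell (median 0.16). The others were GPT2, mitochondrial alanine aminotransferase, with 0.80, PCK2, mitochondrial phosphoenolpyruvate carboxykinase, with 0.72 (0.36 for its other probe), and ASS1, argininosuccinate synthase, with 0.48. The 9 ASS1 pairs ran from 0.08 to 0.93, and its effects were 0.80 for NP, 0.24 for MET and 0.41 for PHEN.
Of the 12 serine and folate one-carbon enzymes, 3 rose and 0 fell (median 0.11). PSPH (NM_004577), the last enzyme of serine synthesis, rose by 0.77 (standard error 0.06, adjusted p = 0.0042 from limma), with pairs of 0.59 to 1.18. PSAT1, the aminotransferase before it, rose by 0.59 (adjusted p = 0.0249), and MTHFD2, a mitochondrial folate dehydrogenase, by 0.49 (adjusted p = 0.0213), but by 0.32, not called, without the NP effect. PHGDH, the first enzyme of the path, was at 0.40 (adjusted p = 0.0618) and SHMT2 at 0.26 (adjusted p = 0.0538), both higher in all 3 effects. ALDH1L2 was lower in all 3 effects, with a mean of -0.36 (adjusted p = 0.46 from limma). Of the 12 genes, 6 were higher and 1 was lower in all 3 effects.
Of the 10 genes of transsulfuration and glutathione, 4 rose and 0 fell (median 0.11). Besides CHAC1, these were CTH (NM_001902), which releases cysteine from cystathionine, with 1.28 (standard error 0.09, adjusted p = 0.00383 from limma), CBS, which makes cystathionine, with 0.68, and the cystine transporter gene SLC7A11 with 0.55. CTH was at 0.47, 0.54 and 0.70 on the W arrays and at 1.28 to 1.81 on the 6 MET and PHEN arrays, whose effects were 0.89 and 1.21, beside 1.75 for NP. Without W replicate 2 its adjusted p was 0.0555. The genes that make glutathione, GCLC (-0.09), GCLM (-0.13) and GSS (0.10), did not pass. CHAC2 was lower in all 9 pairs, with a mean of -0.28 (adjusted p = 0.148 from limma). Of the 10 genes, 5 were higher and 2 were lower in all 3 effects.

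Of 14 amino acid transporter genes, 3 rose, 0 fell and 9 were higher in all 3 effects (median 0.28). SLC6A9 (NM_201649), a glycine transporter, rose by 1.32 (standard error 0.11, adjusted p = 0.00719 from limma), with effects of 1.18, 1.34 and 1.45, and a further probe gave 0.92. Its level was 1.01, 0.62 and 1.92 after DMSO and 2.01, 2.34 and 2.74 after NP. On the W arrays it was -0.11, -0.10 and -0.20, beside 1.02 to 1.52 on the MET and PHEN arrays. SLC3A2, the shared heavy chain of several amino acid exchangers, rose by a mean of 0.32 (adjusted p = 0.04), with effects of 0.32, 0.32 and 0.33, and was called in 0 of the 15 fits that left out 1 array. The exchanger light chain SLC7A5 was at 0.19 (adjusted p = 0.262). SLC36A1 was lower in all 9 pairs, with a mean of -0.23 (adjusted p = 0.213 from limma), and 3 of the 14 genes were lower in all 3 effects. Of 19 cytosolic aminoacyl-tRNA synthetase genes, 2 rose, GARS1 by 0.51 and SARS1 by 0.46, and 13 were higher in all 3 effects (median 0.18). Of 17 mitochondrial synthetase genes, 0 were called and 3 were higher in all 3 effects.

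Genes that act outside amino acid supply also rose. SESN2 (NM_031459), a leucine-binding brake on mTORC1, was at -1.22, -1.71 and -1.21 after DMSO and -0.26, -0.41 and -0.01 after NP. It was at -1.33, -1.69 and -1.41 on the W arrays, -0.75, -0.73 and -0.55 after MET and -0.57, -0.59 and -0.32 after PHEN. The groups did not overlap, and the mean effect was 0.98 (standard error 0.07, adjusted p = 0.00296 from limma). DDIT4, another mTORC1 brake, rose by 0.46 (adjusted p = 0.0171), so that 2 of 9 such genes rose and 0 fell. Of 9 genes for secreted stress signals, 4 rose and 0 fell. INHBE, which encodes an activin subunit, rose by 1.74 (standard error 0.21, adjusted p = 0.0229), with effects of 2.42, 1.36 and 1.45, but was above background on only 1 of 3 DMSO and 2 of 3 W arrays. STC2, stanniocalcin, rose by 0.93, and GDF15, a hormone released under mitochondrial stress, by 0.65. With normexp background correction the mean of INHBE was 0.59 and that of STC2 0.57, both still called. VEGFA (NM_001025370), an angiogenic factor, was at 0.66, 0.71 and 0.24 after DMSO and 1.55, 1.77 and 1.31 after NP. It was at 1.57, 1.60 and 1.62 on the W arrays, at 2.09, 2.11 and 2.07 after MET and at 2.45, 2.36 and 2.58 after PHEN. No group overlapped its vehicle, and the mean effect was 0.79 (standard error 0.05, adjusted p = 0.00262). The NP arrays were near the W arrays in level, since DMSO lay 1.06 below W. Of 24 other glycolysis and hypoxia genes, 0 were called (median 0.01). BBC3, a pro-apoptotic BCL2 family member, rose by 0.43 (adjusted p = 0.013) as the 1 called of 12 such genes.

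Of the 49 genes called higher with a symbol, 30 were on a list and 19 were on none. Among the latter were ECM2, an extracellular matrix protein, with 1.38 (adjusted p = 0.0163), RPS6KA2, a kinase downstream of ERK, with 1.18 (adjusted p = 0.0171), ANKFN1 with 1.11 (adjusted p = 0.0352) and TSC22D3, a glucocorticoid-induced leucine zipper, with 0.69 (adjusted p = 0.00888). ANKFN1 overlapped in NP and DMSO, since 1 DMSO array was at -0.82. The other RPS6KA2 probe gave 0.31 with a PHEN effect of -0.11, so that its rise rests on 1 probe, and the mean of its probes was 0.74 and not called. With normexp background correction ECM2 was at 0.70, RPS6KA2 at 0.63 and ANKFN1 at 0.67, all still called. LINC00662, a long noncoding RNA, rose by 0.51 (adjusted p = 0.00739), with 0.82 for NP, 0.30 for MET and 0.41 for PHEN. HIC1 had effects of 1.03, 0.35 and 0.25 (mean 0.54). It was not well above background on any DMSO array and was on only 2 of 3 NP arrays. The 1.26-fold computed for NP against the DMSO detection limit is therefore not a firm lower bound. With normexp background correction its mean was 0.11 (adjusted p = 0.43 in limma), and in the authors' table and without the NP effect it was 0.33 and 0.30, none of them called. A further 21 features called higher had no symbol. Examples are lnc-BBC3-1:1 with 1.65 (adjusted p = 0.00739) and ENST00000518311 with 1.34 (adjusted p = 0.00399).

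TXNIP and ARRDC4 were the 2 features that fell by 1.5-fold or more, among 44 shared changes of that size (0.164%), of which 42 were rises (0.157%). TXNIP (NM_006472), an arrestin-domain protein that restrains glucose uptake and binds thioredoxin, was at 1.32, 1.58 and 1.52 on the W arrays, at -0.23, -0.11 and -0.08 after MET and at 0.01, 0.08 and -0.02 after PHEN. It was at 0.81, 0.92 and -0.26 after DMSO and at 0.10, 0.13 and -2.05 after NP, so that replicate 3 was low in both groups and the groups overlapped. Within pairs the NP effect had the same sign each time, and the 9 pairs ran from -1.79 to -0.72. The effects of -1.10, -1.61 and -1.46 had a mean of -1.39 (standard error 0.12, adjusted p = 0.00739 from limma). Without W replicate 2 or 3 the adjusted p was 0.0778 or 0.0828.
ARRDC4 (NM_183376), the closest relative of TXNIP in this list, was at -1.42, -1.36 and -1.12 on the W arrays, at -2.39, -2.73 and -2.25 after MET and at -2.38, -2.51 and -2.41 after PHEN. It was at -1.27, -1.37 and -2.52 after DMSO and at -1.89, -2.03 and -3.32 after NP, again with replicate 3 low in both. The effects of -0.69, -1.15 and -1.13 had a mean of -0.99 (standard error 0.06, adjusted p = 0.00296 from limma), and with normexp background correction the mean was -0.61, still called. The other 5 members of the list did not pass, with mean effects of -0.05 to 0.10, MLXIP (MondoA) at -0.05 and MLX at 0.01.
JUN (NM_002228), an AP-1 subunit, fell by a mean of 0.49 on the log2 scale (standard error 0.06, adjusted p = 0.0283 from limma), as the 1 called of 21 immediate early and ERK output genes. Its effects were -0.44, -0.47 and -0.57, and FOS was at -0.15 (adjusted p = 0.523). The other symbols called lower were JCAD (-0.42), RPPH1, the RNA of RNase P (-0.34), KDM4A-AS1 (-0.34), the ribosomal protein gene RPL27A (-0.34) and ID3, an inhibitor of bHLH factors (-0.32). The other JCAD probe gave -0.03, and JCAD was at -0.23, not called, with the mean of its probes and at -0.27, still called, with normexp. Without the NP effect ID3 was at -0.21 and not called. RPPH1 and RPL27A were called in 0 of the 15 fits that left out 1 array. Of the 5 without a symbol, ENST00000517595 had a mean effect of -0.49.

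Lists of other stress programs held few or no called genes. With 0.309% of all features called, lists of this size would hold few or none, so nothing is read from a count of 0. Of 25 ER chaperone, ERAD and UPR genes, XBP1, a transcription factor of the unfolded protein response, rose by 0.47 (adjusted p = 0.0171) and 0 fell, and 11 were lower in all 3 effects, beside 22.3% of all features. HSPA5, the main ER chaperone, had effects of -0.10, -0.24 and -0.06 (adjusted p of the mean = 0.449), and HERPUD1 a mean of 0.42 (adjusted p = 0.108). Of 12 cytosolic heat shock genes, 0 were called and 8 were lower in all 3 effects (median -0.15), the lowest being HSPA1A with -0.52 (adjusted p = 0.13). Of 17 NRF2 targets, SLC7A11 was the 1 called. Of 37 complex I subunit genes (median -0.01), 12 mitochondrial chaperones and proteases, 15 autophagy and lysosome genes (median -0.02), 13 AMPK and mitochondrial biogenesis genes (median -0.02) and 12 p53 targets (median -0.05), 0 were called. Of 25 G1/S and 22 G2/M genes, 0 were called, and 13 and 16 were lower in all 3 effects. Over 6 lists of ATF4 factors, amino acid enzymes, transporters and cytosolic synthetases, 22 of 80 genes tested rose, 0 fell and 50 were higher in all 3 effects. Of all features, 0.261% were called higher and 11.9% were higher in all 3 effects. The median mean effect of these 80 genes was 0.19, beside -0.02 over all features. The lists were chosen with earlier results of these data known, so these counts and medians are a description and test nothing.

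Among the called features, the estimates of the 3 effects differed in size, which is a description and not a test. The NP effect was the largest in 59, the PHEN effect in 18 and the MET effect in 6, and PHEN exceeded MET in 72. For the 70 higher features the median effects were 0.93 for NP, 0.51 for MET and 0.61 for PHEN, and for the 13 lower ones -0.50, -0.34 and -0.37. Of all features, 34.2% had the same sign in all 3 effects without any test. For 82 of the 83, each effect also had an unadjusted p of at most 0.05, beside 0.861% of all features. No feature passed the test of a difference among the 3 effects (0 of 26824 in limma, smallest adjusted p = 0.568), although 33 of the 83 had an unadjusted p of at most 0.05, beside 8.72% of all features (2339). On its own, the NP effect passed an adjusted p of at most 0.05 in 66 features (0.246%), PHEN in 9 (0.0336%) and MET in 2 (0.00746%). In all 9 pairs the direction was the same for 81 of the 83 and in 8 of 9 pairs for the other 2, and among all features 1.41% were higher and 1.77% lower in all 9. Treated and vehicle arrays were fully apart in all 3 comparisons for 39 of the 70 and 3 of the 13, beside 0.212% and 0.101% of all features. These counts use the values that chose the 83, and nothing is read from them.
The estimates of the effects against the 2 vehicles rest on different arrays and were read against each other. Their p-values do not, since the residual variance of a feature was estimated once, from the model of all groups. A feature called for its small variance thus tends to have a small p in the other reading too. The counts at an unadjusted p below are therefore not independent of the calls. The mean of MET and PHEN against W alone called 12 features (0.0447%), 10 higher and 2 lower. The 9 with a symbol were NUPR1, ARRDC4, ASNS, CHAC1, JDP2, VEGFA, SESN2, SLC6A9 and TXNIP. All 12 had the same direction in NP against DMSO with an unadjusted p of at most 0.05. Over all features, 11.8% had such a p in either direction. The median size of the 12 was 1.17. Of the 66 features called by NP alone, 62 had the same direction in the mean of MET and PHEN, beside 51.2% of all features. In 53 of the 66 the direction was the same with an unadjusted p of at most 0.05. Over all features, 8.58% had such a p in either direction. The median size over the 66 was 0.46.

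The DMSO and W arrays, which lay on different slides, differed in level on many called genes. Of the 70 features called higher, 58 had a higher mean in DMSO than in W, beside 37.9% of all features. In 25 every DMSO array was above every W array (9.14% of all features), among them CHAC1, NUPR1, ASNS, JDP2 and SLC6A9, and in 7, VEGFA included, every W array was above every DMSO array (21.2%). Of the 13 called lower, 7 had every W array above every DMSO array and 0 the reverse. The median of DMSO minus W was 0.37 for the higher, -0.42 for the lower and -0.13 for all features. The part of this difference in the effects was not tested, since vehicle and slide set cannot be told apart.
The members nearest the threshold were RPL27A and the transcript ENST00000485364 (adjusted p = 0.0483) and CPT1B, which carries fatty acids into mitochondria (mean effect 0.33, adjusted p = 0.0495). Just outside were SHMT2, a mitochondrial serine hydroxymethyltransferase (0.26), and AARS1, alanyl-tRNA synthetase (0.46), both at an adjusted p of 0.0538. The count of 83 features in the shared response rested on single arrays, W above all. It was 6 without W replicate 2, 10 without W replicate 3 and 30 without W replicate 1, and 29, 44 or 47 without MET replicate 2, 3 or 1. It was 33 or 50 without PHEN replicate 2 or 3 and 55 without replicate 3 of DMSO or NP, and NUPR1, ARRDC4, ASNS, JDP2, SESN2 and VEGFA were called in all 15 of these fits. ATF4 and INHBE were called in 4 of the 15, DDIT3 in 6, ECM2 in 7, JUN in 2 and CPT1B in none. PSAT1, MTHFD2, GARS1 and DDIT4 were also called in 4 of the 15, GPT2 in 5 and CEBPG in 2.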

How the data were processed

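RNA of 15 A2058 samples was hybridized by the authors to single-dye Agilent human arrays, and spot intensities were extracted with Agilent Feature Extraction (10.7.3.1 per the file headers, 9.1 per the labels), which subtracts local background and removes spatial trends. These deposited intensities are not normalized between arrays. The deposited value table, used as an alternative, holds log2 values that the authors aligned at each array's 75th percentile and floored at 4 (31.3% to 50.8% of an array's values).

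Control spots were left out, outlier spots were set to missing (223 of 402360 values), spots of a probe were averaged, and each array was centered by its log2 75th percentile. A probe had to be flagged as well above background on every array of some group, as 32912 of 58201 were. The brightest probe stood for a gene, which gave 26824 features, 16584 with a symbol and 19433 above background on all 15 arrays. Symbols came from RefSeq accessions (31104 of 33080 probes matched). Promoters came from RefSeq (GRCh38.p14). The number of arrays limits the precision.

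A linear model with 5 groups and the replicate number within slide set as a block (6 blocks) was fitted with limma 3.58.1 (R 4.3.3, statmod 1.5.0), with two-sided empirical Bayes tests and Benjamini-Hochberg adjustment over all features. Tables and figures used Python 3.11.15, pandas 2.3.3, numpy 2.4.6 and matplotlib 3.10.9. The fits were run on simulated data, with the same known effect of all 3 compounds in features of below-median residual variance. That run checks the code and not the rate of calls in these data. The block was chosen because the methods pair the replicates and because deviations from group means of equal numbers within a slide set correlated (r of 0.217 to 0.855 in 12 pairs, median 0.364), while equal numbers across slide sets did not (median -0.088). Replicates 1 and 2 of a group shared a slide and replicate 3 lay on another. Equal numbers within a set thus always shared a slide. Unequal numbers on a slide had r of 0.242 and 0.289 for DMSO with NP, beside 0.306 and 0.331 for equal numbers on that slide. Among W, MET and PHEN, unequal numbers on a slide had r of -0.326 to 0.102. For DMSO and NP, the correlation therefore hardly separates pairing from slide. Where a gene was not well above background on any array of a group, its fold was computed against the dimmest value above background there, or the gene's own value where higher.

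The members, gene lists, tests and motif were chosen with earlier results of these data known, and no list was independent of them. The 45 genes named by rule were the 20 largest rises and up to 10 largest falls among called features with a symbol, the same sign in all 9 pairs and signal above background in the higher group; ATF4, ATF3, DDIT3, CEBPB, TRIB3, TXNIP and HSPA5; up to 4 called members of each of 24 lists; and the 5 called features with the smallest p for a difference among effects. Any other gene was chosen for the text with its value known. Alternatives were other block choices, normexp with an offset of 50 on the median spot signal, quantile normalization, the authors' table, other filters on dim probes, the mean of a gene's probes, other weights of the effects, stricter calls, the methods' t-test and leaving out each array. Leaving out a replicate number in both slide sets and the carbohydrate response element were added after the data had been seen. Some genes are not reported here.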

Additional observations from a re-analysis of the deposited data

How the results depend on the processing

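The direction of all 45 named genes was the same under every alternative that could be fitted. The median effect of the ATF4 lists was 0.19 and stayed between 0.18 and 0.23, and the test of a difference among the 3 effects gave 0 calls in limma in each fit (301 to 4031 at an unadjusted p of at most 0.05). The count of the shared response moved more. Instead of 83 features, with 44 in the shared response of 1.5-fold or more, it was 25 and 24 with no replicate block, 32 and 27 with the replicate block by number alone, and 23 and 22 with no filter on dim probes, a setting in which more features are tested. It was 12 and 12 without the NP effect. The count of 83 became 155 with the replicate block as a random effect, 147 with normexp background correction, 175 with features above background on all arrays only and 135 with equal weight to both vehicles. Quantile normalization, the authors' table, the mean of a gene's probes and leaving out the MET or the PHEN effect gave 82 to 111. Stricter calls gave 0 when the largest p of the 3 effects was adjusted, 2 when each effect had to pass its own adjusted p, 19 by the methods' t-test at an unadjusted p and 0 after Benjamini-Hochberg. Leaving out each array in turn gave 6 to 75 features and 6 to 52 of 1.5-fold or more, and since the block pairs DMSO with NP, leaving out either member of a pair gave the same fit. Leaving out a replicate number in both slide sets, chosen after the data had been seen, gave 0 in limma each time (1168 to 2787 at an unadjusted p), with only 10 arrays in the fit. Of the 83, 29 were called in at least 12 of the 15 fits without an array and 8 in none, and the cause was not tested. Signal over background limits dim genes such as INHBE and HIC1, whose values in DMSO are near the detection limit.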
